A study of Mus musculus with 9 samples.

Results

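Interferon-stimulated genes, 38 of them chosen by name, were examined in 9 clones of MPC, primary cells grown in culture from the pancreatic tumors of WTg mice. All 38 symbols were found among the 18049 genes of the table, and all 38 were among the 14705 whose mean reached 10 normalized counts. WTg mice carry 2 transgene sets. In the EL1-Luc/EL1-TAg set, the pancreatic Elastase I promoter, active in acinar cells, drives the SV40 large T antigen and firefly luciferase, and in the other a CAG promoter, active in most cell types, drives the Mettl3 open reading frame. All 9 clones carry both sets and form 1 group, so no non-transgenic, EL1-only or drug-treated group of MPC was compared here, and the age of the mice is not stated for the clones. Each clone was grown from 1 colony picked with a cloning cylinder after tumor tissue had been minced and passaged. The labels mention 80 nM NMS-P937, an inhibitor of polo-like kinase 1, for 24 h in a protocol field but list the treatment as none, and the clones were taken as untreated.

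Type I interferons are secreted proteins that bind a receptor made of IFNAR1 and IFNAR2, and the kinases JAK1 and TYK2 then start signalling inside the cell. A complex that holds STAT2 and IRF9 binds the interferon-stimulated response element (ISRE) in front of its target genes. The target genes encode sensors of viral RNA, enzymes that block viral replication and factors that amplify or end the response. Macrophages and fibroblasts both carry the receptor, and many interferon-stimulated genes are kept at a low level in cells that have met no virus.

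The ISRE is short enough to be read in the sequence, so stretches in front of 6 of the genes are shown, chosen because each holds a match to the ISRE core. The stretches run from 170 to 31 bases before the start site of the RefSeq window, in the direction of the gene, with matches to the core on either strand in capitals. The core searched for was GAAA, any 2 bases and GAAA. They lie in GRCm38.p6 at chr4:156200849-156200988 on the minus strand for Isg15, chr19:34640719-34640858 on the plus strand for Ifit1, chr19:34583359-34583498 on the plus strand for Ifit3, chr12:26456483-26456622 on the minus strand for Rsad2, chr5:120777690-120777829 on the minus strand for Oas3 and chr3:142620493-142620632 on the plus strand for Gbp2.
Isg15: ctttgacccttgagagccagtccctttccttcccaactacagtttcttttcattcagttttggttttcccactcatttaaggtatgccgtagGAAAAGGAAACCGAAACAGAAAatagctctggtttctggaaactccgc
Ifit1: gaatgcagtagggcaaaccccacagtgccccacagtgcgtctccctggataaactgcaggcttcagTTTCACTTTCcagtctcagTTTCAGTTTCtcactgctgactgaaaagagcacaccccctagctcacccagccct
Ifit3: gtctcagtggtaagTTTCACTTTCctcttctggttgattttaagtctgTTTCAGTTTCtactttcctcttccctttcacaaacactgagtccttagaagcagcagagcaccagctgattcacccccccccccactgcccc
Rsad2: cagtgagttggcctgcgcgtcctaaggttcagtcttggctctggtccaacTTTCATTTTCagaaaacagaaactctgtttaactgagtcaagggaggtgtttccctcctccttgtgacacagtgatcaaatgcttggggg
Oas3: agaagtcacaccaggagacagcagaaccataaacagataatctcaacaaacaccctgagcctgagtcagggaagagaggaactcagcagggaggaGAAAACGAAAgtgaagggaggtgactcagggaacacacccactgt
Gbp2: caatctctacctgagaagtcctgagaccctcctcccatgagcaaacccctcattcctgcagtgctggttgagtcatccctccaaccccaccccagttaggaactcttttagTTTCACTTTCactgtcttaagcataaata
In Isg15, 3 overlapping matches form 1 run that begins 78 bases before the start. Ifit1 holds 2 separate matches, the first at 104 bases before the start, and Ifit3 holds 2, the first at 156. For Ifit3 and Oas3 the start site of the window lies 410 and 25 bases inside the gene's annotated span.

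RefSeq windows of 300 bases, from 250 before to 50 after a start site, were matched by symbol to 27 of the 38 genes, in 33 windows. The ISRE core was found in 14 of the 27 genes. Counted by window it was found in 15 of 33, which is 45.5%, against 3.44% of all 32851 windows of the same length. Besides the 6 genes above these were Bst2, Gbp3, Stat2, Oas1a, Trim30a, Ifitm3, Eif2ak2 and Ifih1. The gamma-activated sequence (GAS) core, TTC, any 3 bases and GAA, a motif of genes that answer to interferon gamma, was found in 7 of the 33 windows, 21.2%, against 8.30% of all windows. A match is a description of the letters in the window. Dhx58, Zbp1, Usp18, Ifi27l2a, Rtp4, Mx1, Mx2, Oas2, Parp9, Parp14 and Ifi204 had no window.

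The values are normalized counts, which are reads per gene multiplied by 1 scaling factor per library. Between 12198040 and 20453928 reads per library were recovered, and 3 reads, taken as the floor, were worth 3.79 to 6.56 normalized counts. This floor covers counting error only. The columns of the table carry 3 name prefixes whose meaning the labels do not give, and the libraries are called A1, B1 to B4 and C1 to C4 after them. A1, the only library of its prefix, had the fewest reads, 12198040, against 16526389 to 20453928 in the others. Xist, the RNA of the inactive X chromosome, was at 29664 to 32912 normalized counts in the B libraries and at 0 to 8.39 in A1 and the C libraries, and Ddx3y, a Y-linked gene, was at 0 in the B libraries and at 2376 to 2720 in A1 and the C libraries. The B prefix therefore cannot be told apart from the sex of the mouse, and no prefix can be told apart from the mouse, the tumor or the handling. The labels call the cells fibroblasts. All 14 fibroblast markers had a mean of at least 10 normalized counts. Col1a1 was at 37439 to 164208, but Fap was at 19.6 to 140.05 and Lum at 0 to 68.0. All 16 macrophage markers were detected too, with Lyz2 at 287615 to 577311, and the 16 held 2.23% to 3.48% of all normalized counts. Of 7 epithelial markers 6 were in the table, with a summed level of 20.3 to 314. Epcam was at 0 in all 9 libraries, while Krt7 reached 158, Cdh1 152 and Krt19 145. None of 9 T and NK cell markers was in the table. In bulk RNA, fewer cells of a type and less RNA per cell cannot be told apart. Apart from the difference in Xist and Ddx3y, nothing shows that the clones came from separate animals, so p-values measure only the spread between these libraries.

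All 38 genes were expressed, and they differed between the clones by moderate amounts. The ratio of the highest to the lowest library was 1.31 to 6.55 over the 38 genes, with a median of 2.07. The SD over the 9 libraries of log2(normalized counts + 1) had a median of 0.38 over the 38 genes and 0.25 over the 14705 genes, and 29 of the 38 lay above the latter. No gene of the 38 had an SD over 1, against 8.54% of all genes. Herc6 and Ifi35 had the smallest SD, at 0.14, and Ifi44 the largest, at 0.81. By role the median SD was 0.31 in the regulators and sensors, 0.46 in the IFIT and related effectors, 0.41 in the OAS and RNA-directed enzymes, 0.48 in the dynamin-like GTPases, 0.28 in the membrane and secreted factors and 0.33 in the PARP-DTX3L module and its neighbours.

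The clones C4 and B3 had the higher levels and C3 the lower. C4 had the highest value of 14 of the 38 genes, against 8.31% of all genes, and B3 that of another 14, against 17.9%. C3 had the lowest value of 14, against 9.28%, and A1 that of 9, against 20.9%. Counted against each gene's own median, 35 of 38 were above it in C4 and 34 in B3, but 1 in C3, 2 in C1, 8 in C2 and 10 each in A1 and B4. In B1 and B2 it was 26 each. The median deviation of the 38 genes was 0.30 in C4 and 0.27 in B3, and −0.38 in C3, on the log2 scale. Over all genes the median deviation was 0 in each library. The share of all genes above their own median was not computed.

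**Figure D1:**
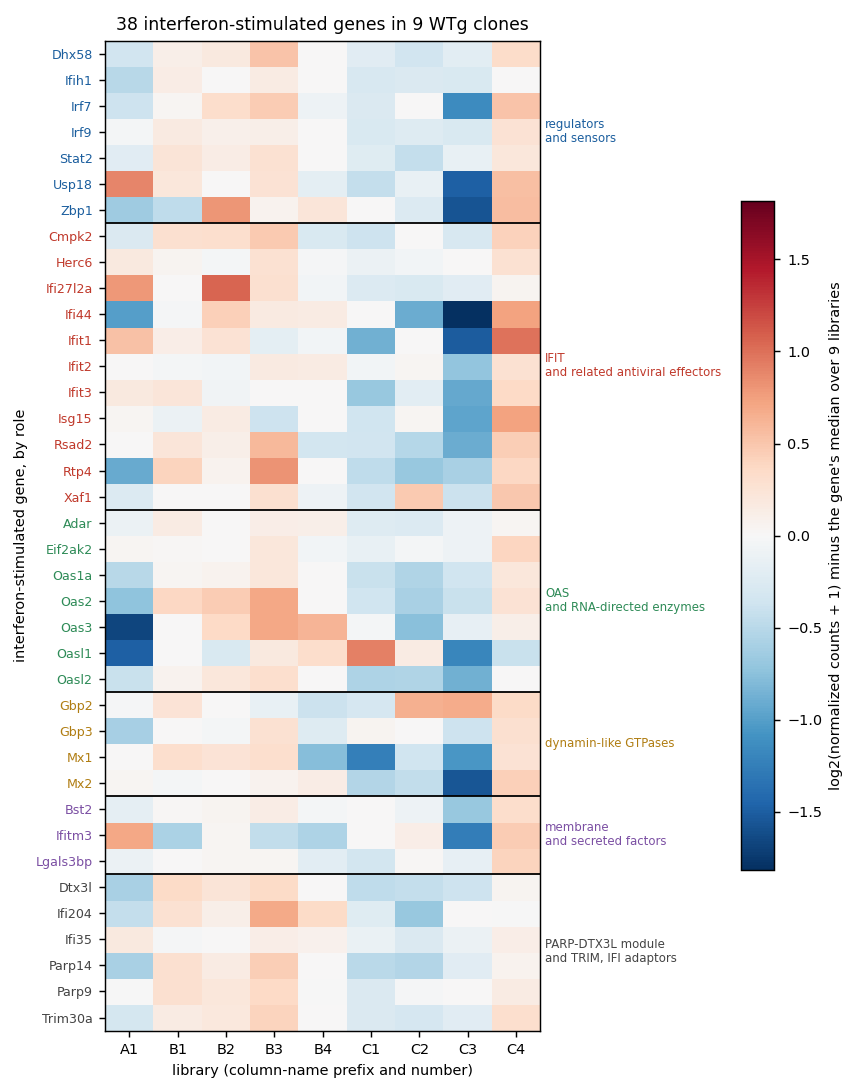
Each row is 1 of the 38 genes, grouped and coloured by role, and each column 1 of the 9 WTg libraries. The colour is log2(normalized counts + 1) minus the gene's median over the 9 libraries: C3 is below the median in nearly every row, C4 and B3 are above it in 35 and 34 rows, and A1 is high for Usp18 and Ifitm3 but low for Oas3, Oasl1 and Rtp4.

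Among the regulators, Irf7 (ENSMUSG00000025498, chr7:141263183-141266499 in GRCm38.p6) encodes the transcription factor that amplifies type I interferon production. Irf7 was at 221 normalized counts in A1, at 295, 359, 395 and 269 in B1 to B4, and at 239, 287, 130.1 and 411 in C1 to C4. The B libraries, at 329 ± 57.8 (SD, n = 4), lay within the range of the C libraries, at 267 ± 116 (SD, n = 4), which held both the lowest and the highest clone. Irf9, the DNA-binding subunit of the complex that binds the ISRE, was steadier, at 833 to 1211 with a median of 1011. Stat2, its partner, was at 1229.8 in A1, at 1664, 1564, 1710.3 and 1418 in B1 to B4, and at 1217, 1054, 1288 and 1636 in C1 to C4. Only C4 among the C libraries reached the range of the B libraries for Stat2.

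The sensors had unlike profiles. Ifih1 encodes MDA5, a sensor of long double-stranded RNA. It was at 486 in A1, at 759.7, 694, 768 and 696 in B1 to B4, and at 561, 576, 567 and 689.7 in C1 to C4. All 4 B libraries were thus above all 4 C libraries for Ifih1, by a small margin, as they were for 5.74% of all genes. Dhx58, which encodes the related helicase LGP2, was at 351 to 644 with a median of 449. Zbp1 encodes a sensor of Z-form nucleic acid that can start necroptosis. It was at 59.1 in A1, at 67.4, 162, 96.9 and 109 in B1 to B4, and at 93.1, 78.0, 30.8 and 137 in C1 to C4, so that the groups overlapped in part, with B2 above every C library and C3 below every B library. Usp18, which removes ISG15 from proteins and shuts down signalling at IFNAR2, was highest in A1 at 127. It was at 78.9, 68.4, 82.5 and 60.6 in B1 to B4 and at 50.4, 62.4, 23.8 and 100.4 in C1 to C4.

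Of the 11 IFIT and related effectors, 6 were highest in C4 and lowest in C3, namely Isg15, Ifit1, Ifit2, Ifit3, Ifi44 and Xaf1. Isg15 (ENSMUSG00000035692, chr4:156199424-156200818) encodes a ubiquitin-like protein that is joined to other proteins. It was at 201 in A1, at 183, 218, 152 and 197 in B1 to B4, and at 153, 201, 101 and 326 in C1 to C4. Ifit1, whose protein binds viral RNA that lacks a host-type cap, was at 319 in A1, at 240.5, 266, 197 and 215 in B1 to B4, and at 120.3, 222, 76.9 and 439 in C1 to C4. For both genes C4 was the highest and C3 the lowest clone, with the B libraries between them. Ifit2 was at 357 to 712 and Ifit3 at 243 to 599.6, again with C3 lowest and C4 highest. Reads of Ifit3 are uncertain, since its near-identical copy Ifit3b was counted separately at 46.2 to 155. Rsad2 encodes viperin, which makes a chain-terminating nucleotide, and Cmpk2, its neighbour on chromosome 12, supplies the nucleotide precursor. Rsad2 was at 85.3 to 242 and Cmpk2 at 82.8 to 150.5, both highest in B3.

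The remaining effectors were mixed. Ifi44 was at 6.99 in C3, which was 5 reads, to 45.8 in C4, and counting error alone gives an SD of 0.41 at its depth. Rtp4 was at 210.1 in A1 and at 700.3 in B3, the lowest and the highest. Xaf1, a proapoptotic factor, was at 211 to 389.9, and Herc6, the main ISG15 ligase of the mouse, at 388 to 508. Ifi27l2a had 2 high libraries, B2 at 943 and A1 at 781, against 375 to 553 in the other 7.

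The OAS enzymes make 2'-5' oligoadenylate, which activates RNase L, and their levels were mostly higher in the B libraries than in the C libraries. Oas2 was at 232 in A1, at 504, 533, 629 and 387 in B1 to B4, and at 303, 258, 291 and 464 in C1 to C4. Oas3 was at 127 in A1, at 405, 519.8, 661 and 623 in B1 to B4, and at 396, 239, 365 and 434 in C1 to C4. A1 was the lowest clone for both genes, and C4 overlapped with the B libraries for both. Oas1a, which shares sequence with Oas1g and other copies and is uncertain for that reason, was at 492 to 836. Oasl2 was at 344 to 781, and Oasl1, which limits IRF7 translation, was near the floor at 4.38 in A1 (2 reads) to 27.2 in C1. Eif2ak2, which encodes the RNA-activated kinase PKR, was at 1218 to 1759. Adar, whose enzyme edits double-stranded RNA and keeps self RNA from MDA5, was at 1388 to 1841 and varied little.

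Among the GTPases, Mx1 and Mx2 were at 20.7 to 62.3 and 15.4 to 63.5. Both are carried as defective alleles in many inbred mouse strains. Mx2 was at 48.1 in A1, at 45.8, 47.0, 49.2 and 51.7 in B1 to B4, and at 32.3, 34.3, 15.4 and 63.5 in C1 to C4, so the B libraries were tightly grouped inside the range of the C libraries. Gbp2 and Gbp3, guanylate-binding proteins that attack pathogen vacuoles and answer to interferon gamma as well, were at 217 to 455 and 114 to 213. Gbp2 was at 280.1 in A1, at 338, 285, 260.4 and 217 in B1 to B4, and at 230.2, 445, 455 and 363 in C1 to C4. It was highest in C3, the library in which 14 other genes of the 38 were lowest.

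Among the membrane and secreted factors, Bst2, the tetherin that holds budding virus at the cell surface, was at 2716 in A1, at 3069, 3140.0, 3325 and 2960.1 in B1 to B4, and at 3031, 2832, 1882 and 3787 in C1 to C4. Ifitm3, which blocks fusion of virus in endosomes, was at 8152 in A1, at 3347, 5109.5, 3672 and 3394 in B1 to B4, and at 5007, 5443, 2094 and 6870.3 in C1 to C4. Ifitm3 differed from Bst2 in A1, which was its highest clone and the second lowest for Bst2. Lgals3bp, a secreted glycoprotein, was at 6337 to 10590 and highest in C4.

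The PARP9-DTX3L complex, a ubiquitin ligase that enhances interferon signalling, and PARP14 are encoded next to each other on chromosome 16. Dtx3l (ENSMUSG00000049502, chr16:35926515-35939027) was at 624 in A1, at 1199, 1099, 1197 and 939 in B1 to B4, and at 682, 696, 723 and 969 in C1 to C4. Parp14 (ENSMUSG00000034422, chr16:35831892-35871518) was at 1646 in A1, at 3029, 2733, 3371 and 2467 in B1 to B4, and at 1761, 1712, 2143 and 2576 in C1 to C4. In both genes A1 was lowest and C4 was the only C library to overlap with the B libraries. Parp9 was at 582 to 893. Ifi204, a DNA-binding protein of the p200 family whose members share sequence, was at 1035 in A1, at 1701, 1499, 2264 and 1782 in B1 to B4, and at 1207, 871, 1399 and 1385 in C1 to C4. All 4 B libraries were above all 4 C libraries for Ifi204, which again held for 5.74% of all genes. Trim30a, which also has near copies, was at 989 to 1639, and Ifi35 at 493 to 669.6.

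**Figure D2:**
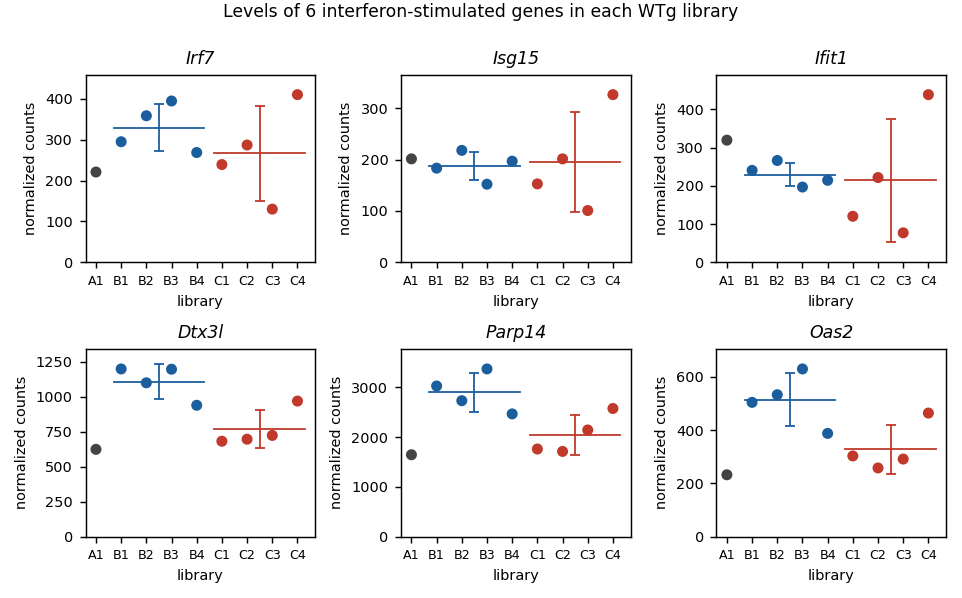
Normalized counts of Irf7, Isg15, Ifit1, Dtx3l, Parp14 and Oas2 in each library, with the mean (horizontal line) and SD (bar) of the 4 B and the 4 C libraries and A1 as a single point. Isg15 and Ifit1 have their highest and lowest clones among the C libraries, C4 and C3, while Dtx3l, Parp14 and Oas2 are lowest in A1 and mostly higher in the B libraries.

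The 38 genes varied together across the clones, but along 2 different profiles. Of the 703 pairs of the 38 genes, 90.3% had a positive Pearson's r of log2 values over the 9 libraries, with a median of 0.54, against 49.9% and a median of −0.00081 over all pairs of genes. These correlations share libraries and depth and are given as a description, and the profiles were named after the values had been seen. Isg15 and Ifit1 had an r of 0.94, and Parp14 and Dtx3l an r of 0.97, whereas Isg15 and Parp14 had an r of 0.09. The first profile, with C4 high and C3 low, held Ifit3, Mx2, Ifit2, Bst2, Usp18 and Ifitm3, each with an r with Isg15 of 0.75 to 0.84. The second, with the B libraries high and A1 low, held Oas2, Ifih1, Rtp4 and Trim30a, each with an r with Dtx3l of 0.93 to 0.97. Irf7, Irf9, Rsad2 and Oasl2 lay between them, with an r with Isg15 of 0.51 to 0.74 and with Dtx3l of 0.66 to 0.88. Gbp2 had a negative mean r with the other 37 genes, at −0.20, and Oasl1, at 0.12, and Ifitm3, at 0.15, had the lowest positive ones.

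Macrophage markers moved with the second profile and much less with the first. The mean log2 level of the 16 markers was 13.4 to 13.8 in the B libraries, 12.9 to 13.4 in the C libraries and 13.1 in A1. Its r over the 9 libraries was 0.98 with Parp14, 0.95 with Dtx3l, 0.95 with Stat2 and 0.93 with Oas2, but 0.05 with Isg15, 0.18 with Ifit1 and −0.39 with Ifitm3. An r above 0.8 was found for 12 of the 38 genes, against 9.45% of all genes. With the mean of 14 fibroblast markers the median r of the 38 genes was −0.33, against −0.043 over all genes. Oas3 was lowest at −0.87, and an r below −0.8 was found for 1 of the 38 and for 640 of the 14705 genes. The summed level of the macrophage markers was 729366 to 834800 in the B libraries and 574523 to 908625 in the C libraries. Fcgr1, on the macrophage list, is itself induced by interferon. The part of the macrophage markers in the second profile was not tested.

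**Figure D3:**
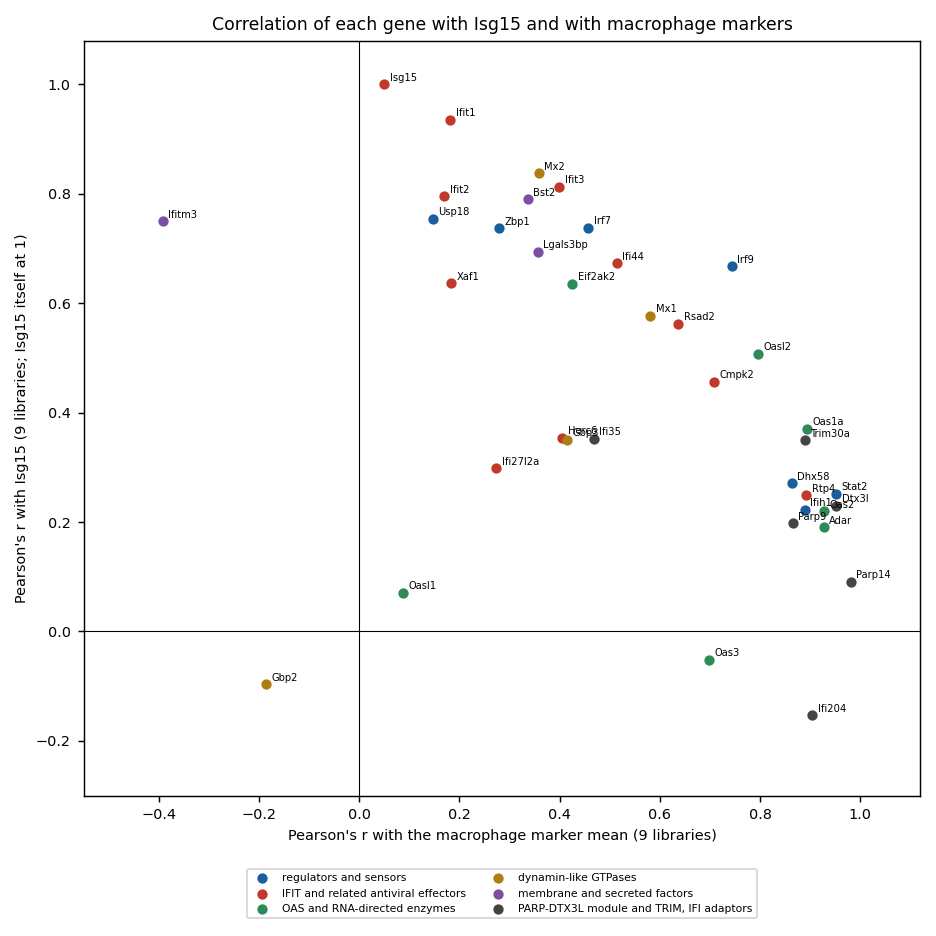
Each point is 1 of the 38 genes, coloured by role, with its Pearson's r with the mean of the 16 macrophage markers on the x axis and with Isg15 on the y axis, both over 9 libraries. Parp14, Dtx3l, Oas2 and Stat2 lie at the right with r with the markers above 0.9 and low r with Isg15, and Ifit1, Mx2 and Ifit2 lie at the top with an r with the markers of 0.17 to 0.36.

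Irf7 was used as an index of the response, because it is both a target and an amplifier, and the slope of every other gene on log2 Irf7 was fitted across the 9 clones with limma. The slope was positive for 36 of the other 37 genes, with a median of 0.49 log2 units per log2 unit of Irf7, against 0.01 over all 14704 genes tested. At an adjusted p under 0.05 no gene of any kind was called, which is 0% of the genes, and limma's voom on the recovered reads called none either. At an unadjusted p under 0.05, 524 genes passed, and 24 of the 37 genes did so with a positive slope, against 2.03% of all genes. Bst2 had the smallest p (slope 0.52, SE 0.075, unadjusted p = 6.4e-05, adjusted p = 0.31, limma). The next were Zbp1 with a slope of 1.20, Oasl2 with 0.68, Ifit2 with 0.49, Ifi44 with 1.40, Rsad2 with 0.80 and Mx2 with 0.98. Only Gbp2 had a negative slope, at −0.22, its 95% interval ran from −0.78 to 0.35, and without C3 its slope was 0.30. By role, 9 of 11 IFIT and related effectors passed the unadjusted threshold, 5 of 6 regulators and sensors, 4 of 7 OAS and RNA-directed enzymes, 3 of 4 GTPases, 1 of 3 membrane and secreted factors and 2 of 6 of the PARP-DTX3L module and its neighbours. The number of the 37 genes past it was 16 without B3 and 16 without C4, the clones with the highest Irf7. Of all genes, 421 of 14695 passed it without B3 and 727 of 14691 without C4. Without C1, 3 genes were called, none of them among the 37.

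**Figure D4:**
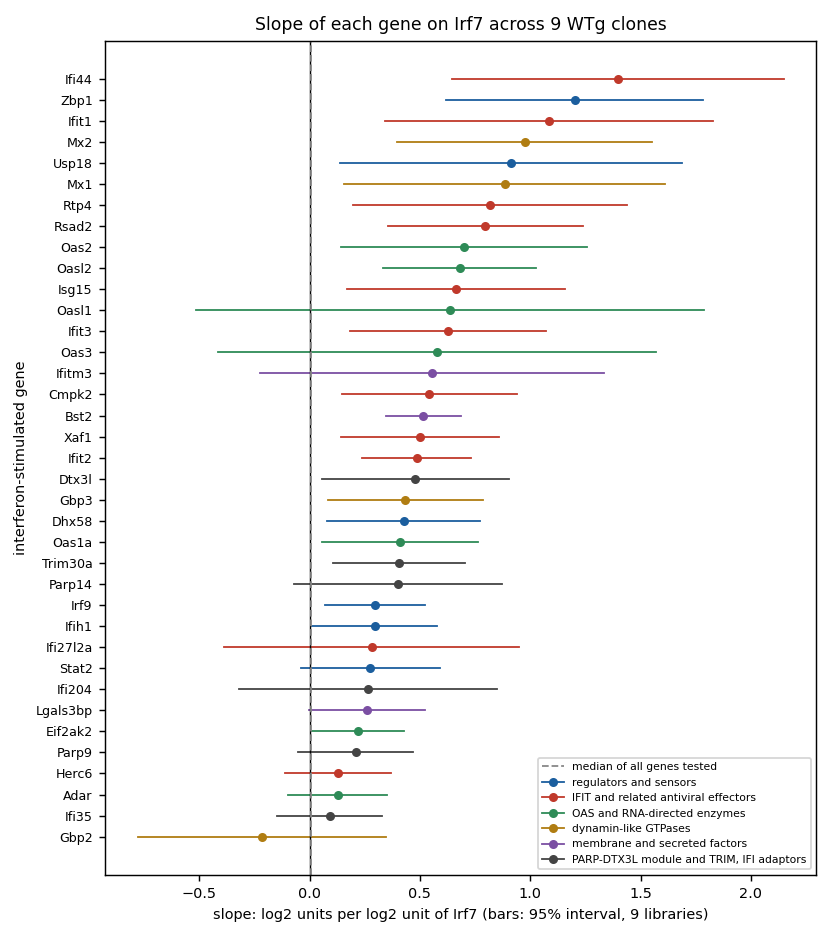
Slope of each of 37 genes on log2 Irf7 across the 9 WTg clones, in log2 units per log2 unit, with 95% intervals from limma, coloured by role. The dashed line is the median of all 14704 genes tested, at 0.01, and 36 of the 37 slopes lie to the right of 0, Gbp2 being the exception.

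The result depended on the index gene. With Stat2 as the index, 521 genes were called at an adjusted p under 0.05, and 9 of the other 37 genes were among them with a positive slope, against 2.09% of all genes. At an unadjusted p under 0.05, 3887 genes of any kind passed with Stat2, against 524 with Irf7. Stat2 itself had an r of 0.95 with the macrophage marker mean. No fit on Stat2 left out a library or held the prefix as a term. With Isg15 as the index no gene was called, and 13 of 37 passed the unadjusted threshold with a positive slope, against 1.91% of all genes. The relation of Irf7 with Isg15 itself had an r of 0.74 and a Spearman's rho of 0.48 over the 9 clones (exact two-sided permutation test over all 362880 pairings, p = 0.034 and 0.19, adjusted over 3 relations 0.10 and 0.58). It rested on C4 and C3. When the 2 clones farthest from the median Isg15 level were left out, the r was −0.10 (n = 7, exact permutation p = 0.83). Within the B and C libraries, centred by prefix, the r was 0.84 (n = 8, exact permutation p = 0.095). Irf7 had an r of 0.13 and a rho of −0.017 with log2 library depth (n = 9, exact permutation p = 0.71 and 0.98, adjusted 0.71 and 0.98).

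The B and the C libraries were compared as the only sets of libraries that the column names separate. Between them, 29 of 14737 genes, 0.197%, were called by limma at an adjusted p under 0.05, and none of the 38 was among them. At an unadjusted p under 0.05, 2953 genes passed, and 10 of the 38 genes were higher in B, against 11.3% of all genes. The difference was positive for 34 of 38 genes, with a median of 0.31 on the log2 scale, against 0.018 over all genes. The smallest p was that of Dtx3l, higher in B by 0.54 (SE 0.13, adjusted p = 0.14, limma), followed by Oasl2 at 0.64, Parp14 at 0.51, Ifih1 at 0.29, Ifi204 at 0.58, Oas2 at 0.66, Adar at 0.23, Oas3 at 0.63, Rtp4 at 0.65 and Stat2 at 0.31. Dtx3l, Parp14, Oas2, Ifih1 and Rtp4 are of the second profile, which was named for its high B libraries. Their higher values in B are therefore not a separate finding. For 2 of the 38, Ifih1 and Ifi204, all B libraries lay above all C libraries, which is near the share of all genes, 5.74%. For none of the 38 were they all below, against 669 of 14705 genes.

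The first profile was named for its high C4 and low C3, so the spread of its genes within the C libraries is not a finding. The difference between B and C was 0.059 for Isg15 (95% interval −0.68 to 0.80), 0.39 for Ifit1 (−0.68 to 1.47), 0.56 for Mx2, 0.45 for Usp18, 0.41 for Ifit3 and −0.22 for Ifitm3 (−0.997 to 0.56). C3 was the lowest and C4 the highest of the C libraries for these 6 genes. Without C4, 22 of the 38 genes passed the unadjusted threshold with higher values in B, against 10.6% of all genes. The number of all genes called was 8 without B1, 15 without B2, 12 without B3, 17 without B4, 15 without C1, 14 without C2, 262 without C3 and 9 without C4, and none of the 38 was called in any of these fits. At an unadjusted p under 0.05, 10 of 16 macrophage markers were higher in B, against 11.3% of all genes, and none was lower. Of 14 fibroblast markers 6 were lower in B, against 8.79% of all genes, and 1, Dcn, was higher, by 1.79.

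**Figure D5:**
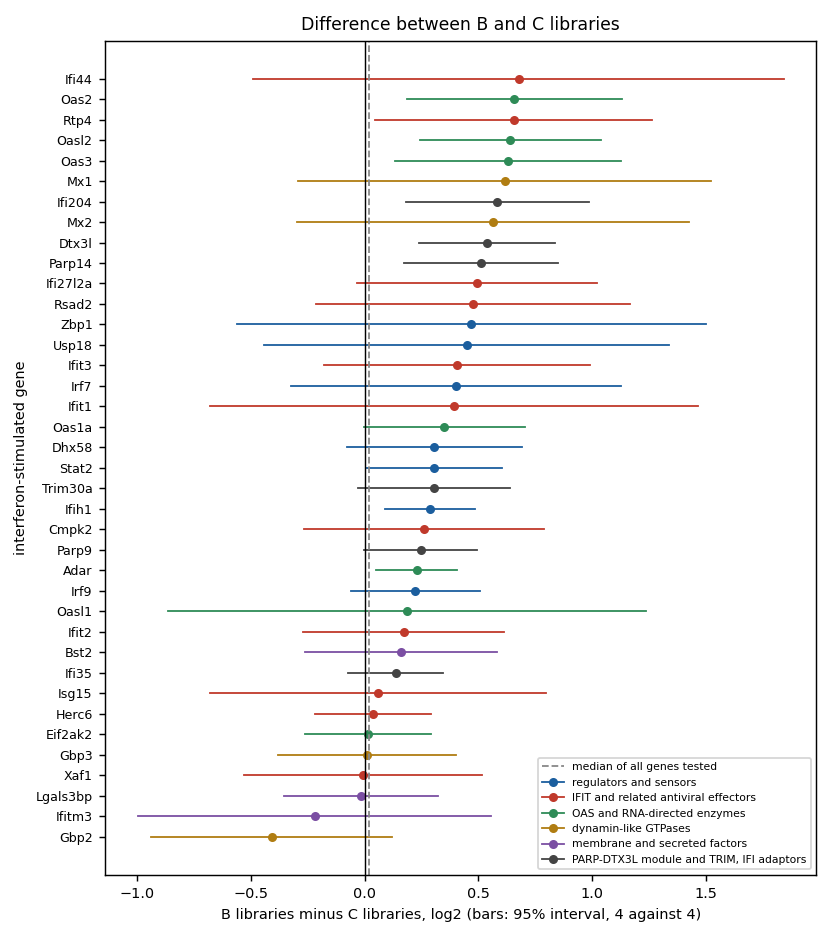
Difference of each of the 38 genes between the 4 B and the 4 C libraries on the log2 scale, with 95% intervals from limma, coloured by role. The dashed line is the median of all genes tested, at 0.018, and 34 of the 38 differences lie to the right of 0, with the intervals of 10 genes clear of 0, among them Dtx3l, Parp14 and Oas2. The second profile, which holds Dtx3l, Parp14 and Oas2, was named for its high B libraries.

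Mettl3, the m6A methyltransferase that the transgene encodes, was at 2184 normalized counts in A1, at 515 to 621 in the B libraries and at 468 to 502 in the C libraries. Reads of the transgene and of the endogenous gene cannot be told apart here. Across the 9 clones the slope on log2 Mettl3 was called for 386 genes, 2.63%, by limma at an adjusted p under 0.05, and for none of the 38. At an unadjusted p under 0.05 it was 2203 genes, 15.0%, and 2 of the 38, Oas3 with a slope of −0.75 and Ifi27l2a with a slope of 0.43. Without B2, Ifi27l2a passed the adjusted threshold, with the same slope of 0.43 (adjusted p = 0.033, limma). The median slope of the 38 genes was −0.038, against 0.006 over all genes. These slopes rest on A1. Without A1 no gene was called, 16 of the 38 genes passed the unadjusted threshold with a positive slope, against 5.71% of all genes, and the slope of Oas3 was 1.87. With the prefix as a term over the same 8 libraries, 2 of the 38 passed it, against 0.679% of all genes. The r of Irf7 with Mettl3 was −0.11 over 9 clones (rho 0.28, exact permutation p = 0.71 and 0.46, adjusted 0.71 and 0.69) and 0.60 without A1 (n = 8, exact permutation p = 0.12).

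Other genes of the pathway were taken from lists. Of 20 interferon ligands 1 was in the table, Ifnz, at 0 to 5.60 normalized counts, around the floor. Of the 6 receptor chains, Ifnar1 was at 2827 to 4970.4, Ifnar2 at 1790.3 to 3620.3, Ifngr1 at 2427 to 5369, Ifngr2 at 3275 to 4095 and Il10rb at 3084 to 6562, and Ifnlr1, the chain specific to interferon lambda, was at 1.48 to 10.3. All 5 receptor chains with enough reads were higher in B than in C at an unadjusted p under 0.05, against 11.3% of all genes, with Ifnar1 at 0.47 (SE 0.10, adjusted p = 0.12, limma), and none of the 5 followed Irf7 at that threshold. Of 10 genes of receptor-proximal signalling, 5 were higher and 1 lower in B at the unadjusted threshold. The counts that follow are at the same threshold, with 2.03% of all genes having a positive slope on Irf7. Of 15 genes of nucleic acid sensing, 2 followed Irf7 and 4 were higher in B. Of 15 genes on the list named for restraint of the response, 1 followed Irf7, Nlrc5 with a slope of 0.58, and 3 were higher in B. Of 14 targets of interferon gamma, 3 followed Irf7 and 4 were higher in B. Of 61 other interferon-induced genes, 15 followed Irf7, among them Ifi209 with a slope of 1.03 and Rnf213 with 0.49, and 19 were higher and 2 lower in B. No gene of these lists passed the adjusted threshold for Irf7 or the prefix, and 1 did for Mettl3, Ifi30 with a slope of −0.58 (adjusted p = 0.018, limma). The slopes on Mettl3 rest on A1, and without A1 no gene of any kind was called. Plasmacytoid dendritic cells are a main source of type I interferon, and of 6 of their markers 2 were in the table, with a sum of 26.3 to 85.3 normalized counts.

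Outside the 38 genes, the genes that varied most like them were ranked by their mean r with the 38 over the 9 libraries, among all genes that reached the mean of 10. Sp110, a nuclear body protein, was among the highest at 0.67, then 1600012H06Rik at 0.67, B2m, the light chain of MHC class I, at 0.67, Irak3, which restrains Toll-like receptor signalling, at 0.65, and Ifi206, another p200 family gene, at 0.65. Prr36 and Zfp94 were at 0.65 and 0.64, and Ccdc93 and Hmox2 at 0.64. The largest mean r of a gene with these 38 is a maximum over all genes and has no test.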

How the data were processed

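The 38 genes, the gene lists and the tests were chosen with earlier results of these data known. RNA from the 9 WTg clones was sequenced as stranded mRNA libraries. The submitters' processing notes name FastQC 0.11.9, STAR 2.7.10, RSEM 1.3.3 and the build GRCm38. RSEM divides reads between near-identical copies. The software used for scaling is not given in the sources used here. The authors deposited log2 values, with an offset of 4, of counts scaled by 1 factor per library, for 18049 genes (18033 identifiers matched the gene names given). The same table holds 6 columns of embryonic fibroblasts from other studies, which were not used in any step.

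The log2 was undone and 4 was subtracted. Whole reads, within 0.1, were recovered for 100% of values under 1000 reads. No pair of libraries agreed within sampling noise (lowest chi-square per degree of freedom 24.1). Column names did not match single sample titles, so the libraries are replicates of 1 group without numbers of their own. Genes whose mean reached 10 normalized counts were fitted with limma 3.58.1 in R 4.3.3, with a mean-variance trend. The scale was log2(normalized counts + 1), which understates differences of low genes, with Benjamini-Hochberg adjustment over all genes and a threshold of 0.05. Correlations over clones were tested by exact permutation in Python 3.11.15. The fits were also run on simulated counts in which 200 genes differed, with noise drawn separately for each gene. The outcome is not reported here. Marker levels are means of log2(normalized counts + 1). Named are all 38 genes, the detected ligands and receptors, genes of the lists past an unadjusted test, up to 5 a list by smallest p, and the 10 other genes with the highest mean r, of which 1 is not reported here. Levels were not compared between genes, because exonic lengths were not used here. Sequences come from RefSeq windows of GRCm38.p6. Alternatives were upper-quartile scaling, pseudocounts of 0.1 and 4, no filter, voom, another index gene, the prefix as a term and leaving out libraries. Leaving out each library in the fits on Irf7 and Mettl3 was chosen after seeing the data.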

Additional observations from a re-analysis of the deposited data

Results flagged for a closer look

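In 2 of the 38 genes 1 library stood apart from the other 8, with a gap to its nearest neighbour that was a larger share of the whole range than Dixon's 95% limit for 9 samples. Ifit2 was lowest in C3, at 357 normalized counts against 567 to 712 in the other libraries, and the gap was 0.591 of its range. Lgals3bp was highest in C4, at 10590 against 6337 to 8171, and the gap was 0.569 of its range. Chance flags about 1 in 20 groups of samples, and 2 of 38 is near that share. The 38 genes share their libraries, and the share flagged over all genes was not computed.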

How the results depend on the processing

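No paired analysis was possible because the clones are of 1 group and their columns carry no replicate number that could pair them. A quasi-likelihood count test of the prefixes was planned and not run, since the deposited unit is log2, and voom was run in its place. The number of the 38 genes above the median SD of all genes was 23 without the filter and 29 with upper-quartile scaling, either other pseudocount and without A1. Other alternatives were not run for it. The number of genes called for a slope on Irf7 at the adjusted threshold was 0, except when libraries were left out (0 to 3). With Stat2 in place of Irf7 it was 521, of which 307 had a positive and 214 a negative slope on Stat2. With Isg15 as the index, the number of the 37 genes at the unadjusted threshold was 13. For the prefixes, leaving out libraries gave 8 to 262 called genes and 7 to 22 of the 38 at the unadjusted threshold. It was 7 without B3, against 1887 of all 14733 genes, and 22 without C4, against 2840 of 14716. Without C3 it was 9, against 3656 of 14722. For Mettl3, voom called 61 genes, and 0 were called without A1 and 0 with the prefix as a term. Of the 38, 16 passed the unadjusted threshold without A1, and 1 to 4 passed it when other libraries were left out. Of all genes, 1630 of 14736 passed it without A1. When other libraries were left out, 1893 (without B4) to 2923 (without C2) did. Ifi27l2a also passed the adjusted threshold without B2. The r of Irf7 with Mettl3 turned from −0.11 to 0.60 without A1, 0.50 centred within prefixes and 0.57 without the 2 farthest clones. That with Isg15 turned to −0.10 without the 2 farthest clones. That with depth turned from 0.13 to −0.18, −0.42 and −0.17 under the same alternatives in that order. The slope of Gbp2 on Irf7 was −0.22, with a range of −0.35 (without C4) to 0.30 (without C3) when libraries were left out, and that of Oas3 on Mettl3 turned to 1.87 without A1 and 0.27 with the prefix as a term. Of 296 values of 20 single results, 292 kept their direction and side of the adjusted threshold. None of the 20 passed that threshold in its main fit, so keeping the side meant staying uncalled. The causes of the changes were not tested. Depth limits Oasl1, Ifi44 and Mx2, which had 2 to 43 reads per library.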
